A study of Mus musculus with 7 samples.

Results

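The 33 genes described here are transcripts by which microglia, the resident macrophages of the brain, are recognised in RNA from whole tissue. They were picked by symbol from the 55450 genes of the per-library tables, and all 33 were found and passed the filter on low counts. Microglia enter the brain early in embryonic life from the yolk sac, renew themselves locally, and depend on the receptor encoded by Csf1r for survival. In the postnatal cerebellum they clear dying cells and take part in the refinement of synapses, with complement C1q as one of the tags that mark material for uptake. The set held identity receptors and surface proteins, transcription factors, the C1q chains, adaptor proteins with their receptors, leukocyte signalling proteins and lysosomal proteins.

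Polyadenylated RNA was sequenced from cerebella of C57BL/6 mice at postnatal day 15, with 4 L3mbtl3 KO/+ and 3 WT libraries. KO/+ mice carry a KO allele of L3mbtl3, which encodes a methyl-lysine reader with MBT domains, beside a normal one, and the WT mice carry no KO allele. The deleted part of the gene, the cells in which it acts, litter and sex are not given in the labels, and nothing in them says how the replicates are related, so p-values measure the spread between these libraries. The comparison of genotypes asked whether loss of a single L3mbtl3 allele changed RNA levels in the cerebellum.

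Total expected counts were 29248360 to 39660499 in KO/+ libraries and 36269844 to 43761792 in WT libraries. L3mbtl3 itself was at 19.7, 17.4, 22.3 and 23.0 CPM (counts scaled to library size with TMM factors) in KO/+ libraries, against 22.6, 26.8 and 23.2 CPM in WT libraries. The genotypes overlapped, the log2 fold change of KO/+ over WT was −0.23 ± 0.12 (SE), and an exact two-sided permutation test gave p = 0.114, where 35 splits allow no p below 0.0571. Since the deleted part is not given, this level does not check the labels. Of 16813 genes tested with edgeR's quasi-likelihood test, 0 (0%) passed an adjusted p of 0.05 and 530 (3.15%) had an unadjusted p under 0.05. With DESeq2 the counts were 0 called and 597 under this unadjusted p. The share of 3.15% depended on single libraries, as 530 genes became 182 without KO/+ replicate 1, 186 without KO/+ replicate 2, 1570 without KO/+ replicate 4 and 972 without WT replicate 3.

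The defining markers of microglia were present in every library. All 10 genes of border macrophages, which express some of the same genes, also passed the filter and are given below. The 33 genes together made up 0.0253% to 0.0407% of all TPM (a level per transcript length that allows genes to be compared), and single genes had between 13 and 2172 expected counts in a library. In 19 of the 33, every library held at least 100 counts. The genes of monocytes and neutrophils were near 0, as none of 10 such genes passed the filter and their highest count in any library was 16. Summed over these 10 genes, the level was 0.338 to 1.08 CPM in KO/+ libraries and 0.538 to 0.812 CPM in WT libraries. Of 9 T and B lymphocyte genes only Cd79b passed the filter, and their summed level was 0.618 to 1.47 CPM in KO/+ and 0.998 to 1.31 CPM in WT libraries. In RNA from whole cerebella, fewer microglia and less RNA per microglial cell cannot be told apart.

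The protein encoded by Spi1, itself in the set, is an ETS-family factor that binds a purine-rich core in the promoters of many myeloid genes. RefSeq promoter windows (GRCm38.p6, 250 bases before to 50 bases after the start) were at hand for 25 of the 33 genes, and not for Csf1r, Tmem119, Selplg, C1qa, Spi1, Gpr34, Lyn and Tyrobp. The letters GAGGAA, searched on both strands (as TTCCTC on the other), stood in 17 of these 25 genes (68%), against 8446 of 27025 genes in the whole promoter table (31.3%). The longer form GAGGAAGT (ACTTCCTC on the other strand), which contains the shorter one, stood in 4 of the 25 (16%), in C1qc, Ctss, Cd53 and Inpp5d, against 997 of 27025 genes (3.69%). A match is a run of letters and not a measured binding site. In 8 genes the match lies in the 250 bases before the start and no annotated exon overlaps them, and 5 of the 8 are shown as examples of different roles, with the match in capitals.
C1qb, chr4:136886201-136886450, minus strand: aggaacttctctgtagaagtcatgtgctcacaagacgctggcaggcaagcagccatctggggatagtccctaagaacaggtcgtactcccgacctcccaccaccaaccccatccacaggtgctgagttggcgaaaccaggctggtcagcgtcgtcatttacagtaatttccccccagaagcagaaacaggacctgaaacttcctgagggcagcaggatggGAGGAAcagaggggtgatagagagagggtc
Trem2, chr17:48346151-48346400, plus strand: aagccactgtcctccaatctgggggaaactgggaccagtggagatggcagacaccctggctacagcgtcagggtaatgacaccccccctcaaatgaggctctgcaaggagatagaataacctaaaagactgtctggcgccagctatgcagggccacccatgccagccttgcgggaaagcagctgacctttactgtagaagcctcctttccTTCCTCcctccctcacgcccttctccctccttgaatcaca
P2ry13, chr3:59210883-59211132, minus strand: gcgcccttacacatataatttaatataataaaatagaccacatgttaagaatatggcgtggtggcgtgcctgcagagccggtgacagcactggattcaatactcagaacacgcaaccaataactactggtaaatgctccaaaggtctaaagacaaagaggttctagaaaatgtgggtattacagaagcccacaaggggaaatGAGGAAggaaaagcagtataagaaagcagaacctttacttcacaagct
Itgam, chr7:128062390-128062639, plus strand: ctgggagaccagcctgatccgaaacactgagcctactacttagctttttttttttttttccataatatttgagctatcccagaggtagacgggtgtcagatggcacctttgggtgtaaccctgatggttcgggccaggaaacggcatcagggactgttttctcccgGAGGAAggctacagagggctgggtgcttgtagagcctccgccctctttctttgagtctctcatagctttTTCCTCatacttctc
Inpp5d, chr1:87620062-87620311, plus strand: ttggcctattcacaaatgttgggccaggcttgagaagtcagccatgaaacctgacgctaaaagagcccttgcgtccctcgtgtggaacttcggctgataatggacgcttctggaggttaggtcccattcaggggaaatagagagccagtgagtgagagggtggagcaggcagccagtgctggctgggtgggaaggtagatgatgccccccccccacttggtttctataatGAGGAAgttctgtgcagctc
The match stood 30 bases before the start in C1qb, 48 in P2ry13 and 20 in Inpp5d, each on the strand of the gene, and in Inpp5d it continues into the longer form. In Trem2 it stood 40 bases before the start on the other strand. Itgam had a match on each strand, 15 bases before the start on the other strand and 84 before it on that of the gene. In the genes not shown, the match stood 39 bases before the start in Cd53, 164 in Ctss and 225 in Cd68, each on the strand of the gene. At these positions in Cd53 and Ctss the match does not continue into the longer form.

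Between genotypes, none of the 33 microglia genes passed the test. Log2 fold changes of KO/+ over WT ran from −0.28 (Slc2a5) to 0.44 (Aif1), with adjusted p of 0.957 to 0.997 (edgeR's quasi-likelihood test, Benjamini-Hochberg over all 16813 genes), while 0% of all genes passed. The smallest unadjusted p in the set was 0.0872 (Lyn, edgeR), so 0 of 33 were under 0.05, beside 3.15% of all genes. DESeq2, limma-voom and limma-trend also called 0 of the 33. In every one of the 33 genes the KO/+ and WT libraries overlapped in CPM, where 665 of all genes (3.96%) did not overlap. The point estimate was above 0 for 24 of the 33 (72.7%) and below 0 for 9, beside 48.8% above 0 over all genes tested, and the median was 0.12 beside −0.0047 over all genes. That count depended on single libraries, as it was 17 without WT replicate 2 (median 0.01), 30 without WT replicate 3 (median 0.30) and 29 without KO/+ replicate 4 (median 0.28). The 95% intervals lay within a 2-fold change in either direction for 27 of the 33 genes and within a 1.5-fold change for 8.

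**Figure D1:**
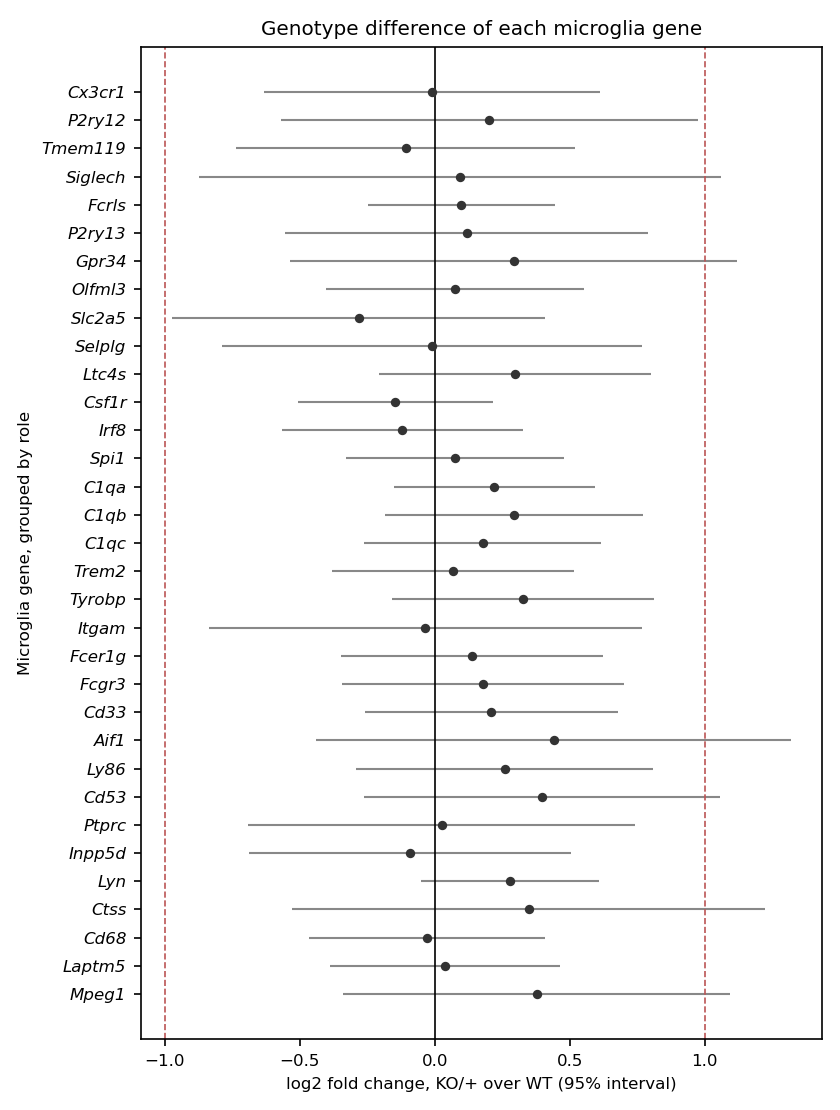
Log2 fold change of KO/+ over WT (x axis) for each of the 33 microglia genes (y axis, grouped by role), with points for the edgeR estimates and bars for their 95% intervals; dashed lines mark a 2-fold change. Every interval crosses 0, and the estimates run from −0.28 for Slc2a5 to 0.44 for Aif1.

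The identity receptors and surface proteins numbered 11, of which 7 had a log2 fold change above 0 (median 0.09) and 0 passed. Cx3cr1 (ENSMUSG00000052336.7, GRCm38 chr9:119901616-120069879, minus strand), the receptor for the neuronal chemokine fractalkine, was at 18.2, 20.5, 18.0 and 10.5 CPM in KO/+ libraries, against 14.5, 12.7 and 23.5 CPM in WT libraries. WT replicate 3 was the highest of the 7 libraries and KO/+ replicate 4 the lowest, and the means were 16.8 ± 4.35 CPM in KO/+ and 16.9 ± 5.78 CPM in WT (SD, n = 4 and 3), a log2 fold change of −0.01 ± 0.27 (SE). P2ry12 (ENSMUSG00000036353.13, chr3:59216272-59262871, minus strand), the purine receptor that guides microglial processes to damage, was at 15.7, 18.5, 15.9 and 7.81 CPM in KO/+ libraries, against 11.6, 8.02 and 18.1 CPM in WT libraries. Its log2 fold change was 0.20 ± 0.34, and KO/+ replicate 4 and WT replicate 2 stood at about the same low level. Its neighbour on the same strand, P2ry13 (chr3:59207892-59210882), a related purine receptor, was at 2.77 to 5.51 CPM in KO/+ and 3.23 to 5.87 CPM in WT libraries.

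Tmem119 (ENSMUSG00000054675.5, chr5:113793729-113800516, minus strand), a membrane protein used as a microglia marker, was at 7.09, 7.85, 5.36 and 4.87 CPM in KO/+ libraries, against 5.72, 4.85 and 9.77 CPM in WT libraries. The WT values spanned the whole KO/+ range and went above it, and the log2 fold change was −0.11 ± 0.27. Siglech (ENSMUSG00000051504.18, chr7:55768178-55778925, plus strand), a sialic acid binding lectin, was at 2.89, 3.94, 2.77 and 1.32 CPM in KO/+ libraries, against 1.89, 1.65 and 4.14 CPM in WT libraries. It had the widest spread of the set, with a ratio of 3.14 between its highest and lowest library, and a log2 fold change of 0.09 ± 0.42. Selplg (ENSMUSG00000048163.13, chr5:113818536-113832644, minus strand), a selectin ligand, was at 9.03, 9.11, 7.01 and 4.43 CPM in KO/+ libraries, against 5.96, 4.98 and 11.4 CPM in WT libraries. Again WT replicate 3 was the highest and KO/+ replicate 4 the lowest library, with a log2 fold change of −0.01 ± 0.34.

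The lowest member was Slc2a5 (ENSMUSG00000028976.10, chr4:150119283-150144169, plus strand), a fructose transporter. It was at 0.695, 0.592, 0.530 and 0.440 CPM in KO/+ libraries, against 0.761, 0.433 and 0.865 CPM in WT libraries, from 13 to 37 counts a library. Its log2 fold change of −0.28 ± 0.30 was the lowest of the set, and its genotypes overlapped through WT replicate 2. Ltc4s (ENSMUSG00000020377.15, chr11:50236461-50238616, minus strand), leukotriene C4 synthase, was at 1.33, 1.60, 1.35 and 0.981 CPM in KO/+ libraries, against 1.16, 1.11 and 0.958 CPM in WT libraries. The 3 highest libraries were KO/+, the lowest was WT replicate 3, and the log2 fold change was 0.30 ± 0.22. On the opposite strand Gm26542 shares 26.4% of the exon bases of Ltc4s, and it had at most 4 counts in any library. Of the other identity genes, Gpr34, a lipid-sensing receptor, had an estimate of 0.29 ± 0.36, the Fc receptor-like Fcrls 0.10 ± 0.15 and the secreted Olfml3 0.08 ± 0.21.

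Among the genes that set up and maintain the lineage, 1 of 3 had a log2 fold change above 0 (median −0.12) and 0 passed. Csf1r (ENSMUSG00000024621.16, chr18:61100598-61132149, plus strand), the receptor for the survival factors encoded by Csf1 and Il34, was at 40.5, 41.9, 35.1 and 31.7 CPM in KO/+ libraries, against 40.1, 32.9 and 50.8 CPM in WT libraries. The highest library was WT replicate 3, the means were 37.3 ± 4.76 CPM in KO/+ and 41.3 ± 9.001 CPM in WT (SD), and the log2 fold change was −0.15 ± 0.16. On the opposite strand Hmgxb3 shares 15.1% of the exon bases of Csf1r. Hmgxb3 was at 40.1 to 49.8 CPM over the libraries, and whether the counting used strand is not given. Spi1 (ENSMUSG00000002111.8, chr2:91082390-91115756, plus strand) was at 2.20, 2.42, 2.47 and 1.93 CPM in KO/+ libraries, against 2.13, 1.87 and 2.43 CPM in WT libraries. Its highest library was 1.32 times its lowest, the narrowest range of the 33, and its log2 fold change was 0.07 ± 0.18. Irf8 (ENSMUSG00000041515.10, chr8:120736358-120756694, plus strand), an interferon regulatory factor that acts with the Spi1 protein, was at 2.23, 3.32, 2.47 and 2.37 CPM in KO/+ libraries, against 2.68, 2.55 and 3.25 CPM in WT libraries. In contrast to the other members, its lowest library was KO/+ replicate 1, and its log2 fold change was −0.12 ± 0.19.

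The complement C1q chains, which assemble into the recognition molecule of the classical pathway, lie next to each other on the minus strand of chromosome 4 and were the most abundant members per length. Averaged over the 7 libraries, C1qb was at 46.3 TPM, C1qa at 35.5 TPM and C1qc at 33.5 TPM, followed by Tyrobp at 26.8, Ctss at 23.9, P2ry12 at 16.6 and Csf1r at 15.9 TPM. The spreads of neighbours in this order overlapped, as C1qa was at 37.3 ± 4.79 TPM in KO/+ and 33.2 ± 4.03 TPM in WT libraries, and C1qc at 34.7 ± 5.93 TPM in KO/+ and 31.9 ± 4.81 TPM in WT libraries (SD). C1qa (ENSMUSG00000036887.5, chr4:136895917-136898803) was at 19.3, 20.3, 16.7 and 13.4 CPM in KO/+ libraries, against 15.3, 12.7 and 16.8 CPM in WT libraries. C1qb (ENSMUSG00000036905.8, chr4:136880129-136886187) was at 30.4, 28.4, 24.5 and 16.1 CPM in KO/+ libraries, against 20.7, 17.4 and 22.7 CPM in WT libraries. In both genes KO/+ replicates 1 and 2 were above all WT libraries, while KO/+ replicate 4 stood near WT replicate 2. C1qc (ENSMUSG00000036896.5, chr4:136889804-136893065) was at 23.7, 23.4, 18.96 and 14.3 CPM in KO/+ libraries, against 17.1, 15.2 and 21.04 CPM in WT libraries. Their log2 fold changes were 0.22 ± 0.16 for C1qa, 0.29 ± 0.21 for C1qb and 0.18 ± 0.19 for C1qc, and 0 of 3 passed.

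**Figure D2:**
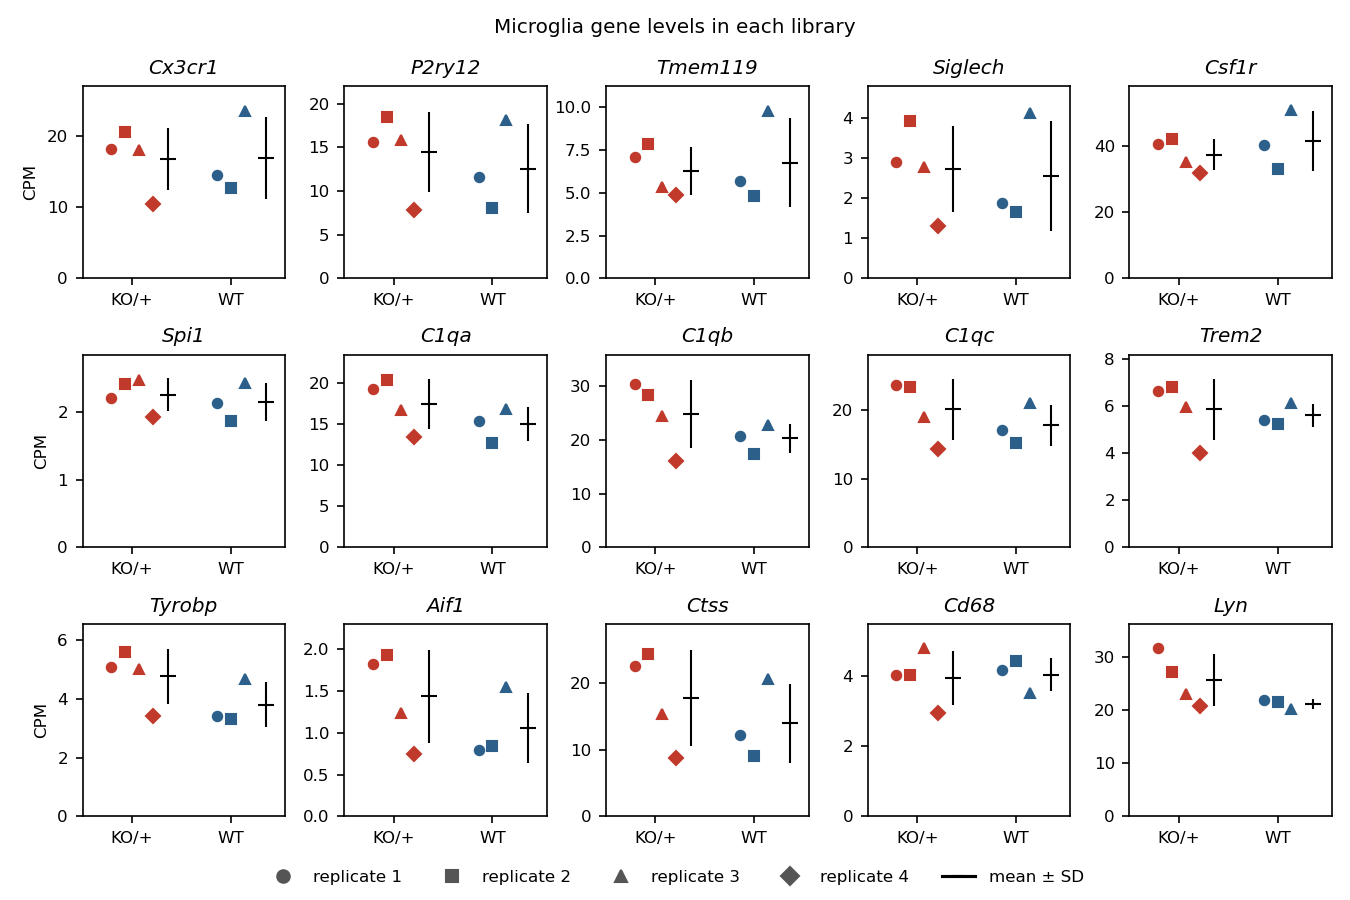
TMM-scaled CPM (y axis, from 0, own scale in each panel) of 15 microglia genes in the 4 KO/+ libraries (red) and the 3 WT libraries (blue), with a marker shape for each replicate number and bars for the mean ± SD. In most panels KO/+ replicate 4 is the lowest KO/+ library and WT replicate 3 the highest WT library, and the genotypes overlap in all 15.

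Of the 6 ITAM adaptors and the receptors around them, 5 had a log2 fold change above 0 (median 0.16) and 0 passed. Trem2 (ENSMUSG00000023992.14, chr17:48346401-48354147, plus strand), a lipid-binding receptor of phagocytic microglia, was at 6.66, 6.82, 5.98 and 4.03 CPM in KO/+ libraries, against 5.43, 5.25 and 6.15 CPM in WT libraries. The WT values lay inside the KO/+ range, and the log2 fold change was 0.07 ± 0.20. Tyrobp (ENSMUSG00000030579.10, chr7:30413760-30417585, plus strand), the adaptor through which Trem2 signals, was at 5.09, 5.58, 5.01 and 3.42 CPM in KO/+ libraries, against 3.41, 3.33 and 4.67 CPM in WT libraries. KO/+ replicates 1 to 3 were above every WT library and KO/+ replicate 4 lay among them, with a log2 fold change of 0.33 ± 0.21. Itgam (ENSMUSG00000030786.18, chr7:128062640-128118491, plus strand), the alpha chain of a complement receptor on myeloid cells, was at 6.92, 8.75, 6.01 and 4.19 CPM in KO/+ libraries, against 5.43, 4.03 and 10.4 CPM in WT libraries. Here WT replicates 2 and 3 were the lowest and the highest of all libraries, and the log2 fold change was −0.03 ± 0.35. Itgam shares 66.3% of its transcript windows of 50 bases with the overlapping gene Gm49368 on the same strand, but that gene was at 0 CPM in 6 libraries and at 0.0234 CPM in WT replicate 3. The Fc receptor genes Fcer1g and Fcgr3 had estimates of 0.14 ± 0.21 and 0.18 ± 0.23, and the lectin gene Cd33 had 0.21 ± 0.20. Fcgr3 shares 9.58% of its windows with Fcgr2b, so the assignment of reads between this pair is uncertain.

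Of the 6 leukocyte membrane and signalling genes, 5 had a log2 fold change above 0 (median 0.27) and 0 passed. Lyn (ENSMUSG00000042228.14, chr4:3678115-3813122, plus strand), a Src-family kinase that phosphorylates both activating and inhibitory receptors, was at 31.8, 27.3, 23.1 and 20.8 CPM in KO/+ libraries, against 21.9, 21.6 and 20.2 CPM in WT libraries. KO/+ replicates 1 to 3 were above all WT libraries, KO/+ replicate 4 lay between WT replicates 2 and 3, and the WT libraries were close together (25.7 ± 4.86 CPM in KO/+ and 21.2 ± 0.921 CPM in WT, SD). Its log2 fold change was 0.28 ± 0.14, with a 95% interval of −0.05 to 0.61, and 13.4% of its windows are shared with the locus Gm11787, which had at most 1 count in any library. Aif1 (ENSMUSG00000024397.14, chr17:35170991-35176068, minus strand), a calcium-binding protein known as the antigen Iba1, was at 1.82, 1.93, 1.24 and 0.744 CPM in KO/+ libraries, against 0.788, 0.839 and 1.54 CPM in WT libraries. It had the highest estimate of the set, a log2 fold change of 0.44 ± 0.38, on 22 to 75 counts a library, and KO/+ replicate 4 was its lowest library. Without WT replicate 3 the estimate was 0.83, and without WT replicate 1 it was 0.26. Cd53 (ENSMUSG00000040747.9, chr3:106759921-106790149, minus strand), a tetraspanin of leukocytes, was at 3.73, 4.42, 4.06 and 2.37 CPM in KO/+ libraries, against 2.60, 1.92 and 3.79 CPM in WT libraries. Its log2 fold change was 0.40 ± 0.29, with WT replicate 2 as the lowest library. Inpp5d (ENSMUSG00000026288.14, chr1:87620312-87720507, plus strand), a lipid phosphatase that restrains signalling from these receptors, was at 4.26, 5.17, 5.30 and 2.91 CPM in KO/+ libraries, against 3.89, 3.95 and 6.26 CPM in WT libraries. WT replicate 3 was again the highest library, and the log2 fold change was −0.09 ± 0.26. The estimates for Ly86, a partner of a Toll-like receptor homologue, and for the leukocyte phosphatase Ptprc were 0.26 ± 0.24 and 0.03 ± 0.31.

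Of the 4 lysosomal and phagosomal genes, 3 had a log2 fold change above 0 (median 0.19) and 0 passed. Ctss (ENSMUSG00000038642.10, chr3:95526786-95556403, plus strand), the protease cathepsin S, was at 22.6, 24.5, 15.4 and 8.76 CPM in KO/+ libraries, against 12.3, 9.07 and 20.6 CPM in WT libraries. Its highest library was 2.80 times its lowest, and the log2 fold change was 0.35 ± 0.38. Mpeg1 (ENSMUSG00000046805.10, chr19:12460779-12465283, plus strand), a pore-forming protein of macrophages, was at 21.05, 23.4, 17.1 and 9.57 CPM in KO/+ libraries, against 12.2, 10.3 and 18.6 CPM in WT libraries. The order of the libraries was that of Ctss, and the log2 fold change was 0.38 ± 0.31. Cd68 (ENSMUSG00000018774.13, chr11:69664213-69666153, minus strand), a lysosomal membrane glycoprotein, was at 4.02, 4.01, 4.80 and 2.94 CPM in KO/+ libraries, against 4.17, 4.41 and 3.51 CPM in WT libraries. It did not follow the pattern of the others, since WT replicate 3 was its lowest WT library, and its log2 fold change was −0.03 ± 0.19. Laptm5, a lysosomal protein of blood cells, had an estimate of 0.04 ± 0.19.

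What varied was the individual library. KO/+ replicate 4 was the lowest KO/+ library in 32 of the 33 genes, with Irf8 as the exception, and WT replicate 3 was the highest WT library in 29 of the 33. Over all 7 libraries, KO/+ replicate 4 was the lowest in 21 genes, WT replicate 2 in 9, WT replicate 3 in 2 (Lyn and Ltc4s) and KO/+ replicate 1 in 1. The highest library was KO/+ replicate 2 in 11 genes, WT replicate 3 in 11, KO/+ replicate 1 in 6 and KO/+ replicate 3 in 5. The mean log2 CPM of the set was 2.77, 2.87, 2.66 and 2.07 in KO/+ libraries, against 2.40, 2.20 and 2.82 in WT libraries. Within each genotype, the libraries stood in the same order by total expected counts. These ran from 39660499 in KO/+ replicate 2 to 29248360 in KO/+ replicate 4. In WT they ran from 43761792 in replicate 3 to 36269844 in replicate 2. Across genotypes the orders differed. WT replicates 1 (37803045) and 2 had more counts than KO/+ replicates 1 (35171610) and 3 (33260001), but a lower mean of the set. The part of sequencing depth in the levels of the set was not tested. In summed TPM, the set was at 384.7, 407.2, 370.0 and 253.2 in KO/+ libraries, against 313.3, 272.5 and 385.9 in WT libraries. In 14 genes the highest library was more than 2-fold above the lowest, and the median of this ratio was 1.89. The 11 genes highest in WT replicate 3 were Laptm5, Csf1r, Olfml3, Slc2a5, Tmem119, P2ry13, Inpp5d, Cx3cr1, Selplg, Itgam and Siglech, and none of the C1q chains was among them.

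**Figure D3:**
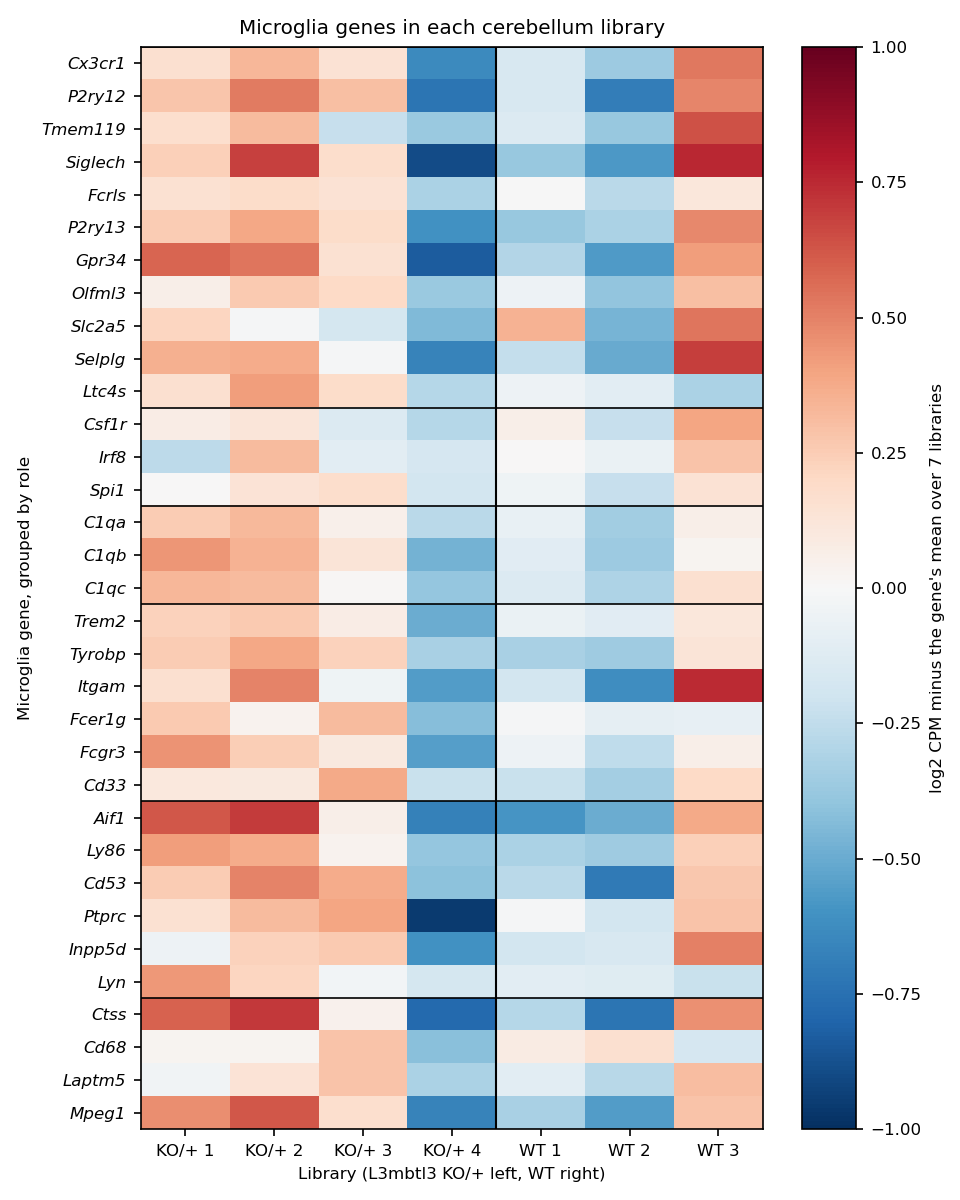
Level of each microglia gene (rows, grouped by role) in each library (columns, KO/+ left of the line and WT right of it), as log2 CPM minus the mean of that gene over the 7 libraries; red is above and blue below that mean. The columns of KO/+ replicate 4 and WT replicate 2 are blue in nearly all rows and those of KO/+ replicate 2 and WT replicate 3 mostly red, with Cd68, Irf8, Lyn and Ltc4s departing from the rest.

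The genes varied together from library to library. Over the 528 pairs among the 33 genes the median Pearson r across the 7 libraries was 0.791 and the median Spearman rho 0.714, beside −0.0018 and 0 over all pairs of genes tested, and 521 pairs had a positive r. These values are descriptions, since the pairs share their libraries, the depth of these and the make-up of the tissue. Taken as deviations from the genotype means, the median r was 0.847. Without the libraries farthest from the median level of the set, KO/+ replicate 4 and WT replicate 2, it was 0.547 over 5 libraries. Against the mean of the other members, r was highest for Gpr34 (0.988), P2ry12 (0.984), Mpeg1 (0.979), Ctss (0.977) and Siglech (0.971). The lowest values were those of Cd68 (0.287), Irf8 (0.483), Lyn (0.526), Ltc4s (0.541), Slc2a5 (0.636) and Fcer1g (0.665).

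Some genes outside the set also followed its mean closely, although the median r over all pairs of genes tested was −0.0018. The 10 other genes with the highest r to the mean of the set were Golga7, Tomm5, Snx13, Rfk, Tspan15, Gm14326, Plekhb1, Gm26512, Rasal1 and Rab39b, at r of 0.983 to 0.992, and none of them is in a microglia list used here. Of the 14437 genes whose mean reached 1 CPM, 625 (4.33%) had r of at least 0.9. Lists of other tissue components were set beside the set by their mean log2 CPM in each library, minus the mean of each list over the 7 libraries. The microglia genes stood at 0.23, 0.33, 0.12 and −0.47 in KO/+ libraries, against −0.14, −0.34 and 0.27 in WT libraries. The 5 genes of myelinating oligodendrocytes followed a like order, at −0.01, 0.46, 0.22 and −0.71 in KO/+ libraries, against −0.21, −0.36 and 0.61 in WT libraries. The 5 Purkinje cell genes were in a similar order, at −0.02, 0.39, 0.06 and −0.22 in KO/+ libraries, against −0.27, −0.15 and 0.22 in WT libraries. The 6 genes of astrocytes and Bergmann glia stood at 0.13, 0.19, −0.05 and −0.08 in KO/+ libraries, against −0.08, −0.20 and 0.10 in WT libraries. The 8 genes of dividing cells went the other way in most libraries, at −0.51, −0.68, 0.28 and 0.44 in KO/+ libraries, against 0.56, 0.61 and −0.71 in WT libraries. The 5 red blood cell genes stood at 0.41, 0.94, 0.39 and −0.58 in KO/+ libraries, against −0.35, −0.52 and −0.29 in WT libraries, and the 5 choroid plexus genes at 1.82, 1.72, 1.37 and −2.45 in KO/+ libraries, against −2.40, 1.65 and −1.71 in WT libraries. Red blood cell and choroid plexus genes parted from the microglia genes in WT replicate 3, and choroid plexus genes also in WT replicate 2. The part of these other tissue components in the levels of the microglia genes was not tested.

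**Figure D4:**
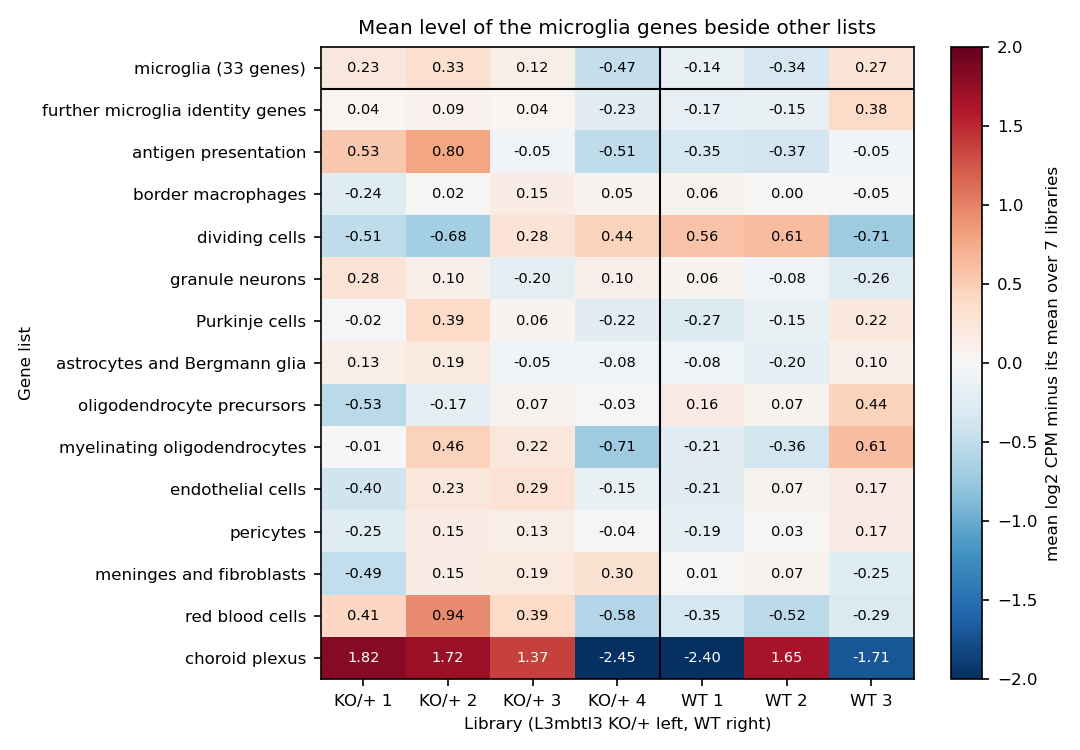
Mean log2 CPM of each gene list (rows) in each library (columns, KO/+ left of the line and WT right of it), minus the mean of that list over the 7 libraries, with the value printed in each cell and colours cut at −2 and 2. The microglia genes stand at −0.47 in KO/+ replicate 4 and 0.27 in WT replicate 3, where dividing cells stand at 0.44 and −0.71 and myelinating oligodendrocytes at −0.71 and 0.61.

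The macrophages at the borders of the brain express part of the same programme, so their genes were set beside the microglia genes. All 10 border macrophage genes passed the filter on counts, 5 had a log2 fold change above 0 (median 0.07) and 0 were called. Their mean did not follow that of the microglia genes, at −0.24, 0.02, 0.15 and 0.05 in KO/+ libraries, against 0.06, 0.00 and −0.05 in WT libraries. Mrc1, the mannose receptor of these cells, was at 8.74, 11.2, 15.3 and 11.1 CPM in KO/+ libraries, against 11.2, 10.3 and 9.86 CPM in WT libraries, a log2 fold change of 0.15 ± 0.18. The scavenger lectin Clec10a had an estimate of 0.32 ± 0.18 and Lyve1, a hyaluronan receptor, −0.45 ± 0.41.

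The signals that neurons and other cells send to microglia, with their receptors, were measured in full, 4 of 14 with a log2 fold change above 0 (median −0.03) and 0 called. Csf1 was at 11.5, 15.3, 13.3 and 11.2 CPM in KO/+ libraries, against 12.7, 13.02 and 19.5 CPM in WT libraries, and Il34 at 3.36, 6.10, 4.83 and 5.11 CPM in KO/+ libraries, against 3.91, 4.47 and 8.27 CPM in WT libraries. Both had their highest value in WT replicate 3, as did Csf1r, and their log2 fold changes were −0.23 ± 0.18 and −0.20 ± 0.30. Without WT replicate 3 they were −0.0023 for Csf1 and 0.21 for Il34. Cx3cl1, which encodes fractalkine, the ligand of the Cx3cr1 receptor, was at 23.0, 30.7, 30.5 and 26.0 CPM in KO/+ libraries, against 25.4, 27.7 and 95.7 CPM in WT libraries. The value of WT replicate 3 was more than 3-fold above every other library, so the log2 fold change of −0.85 ± 0.43 was 0.05 without it. Tgfb1, the growth factor that maintains microglial identity, had an estimate of −0.14 ± 0.14, and Gas6, a ligand that bridges receptors to dying cells, −0.11 ± 0.08.

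Of 18 further microglia identity genes outside the set, 17 were tested, 7 had a log2 fold change above 0 (median −0.01), 0 were called and 1 had an unadjusted p under 0.05. That gene was Sall1, a zinc-finger factor of microglial identity in mice, at 6.77, 9.65, 11.96 and 9.13 CPM in KO/+ libraries, against 12.3, 10.9 and 16.2 CPM in WT libraries. Its log2 fold change was −0.49 ± 0.21 (unadjusted p 0.0470 and adjusted p 0.957 in edgeR's test), the genotypes overlapped, and Sall1 is known to be transcribed in other cells too. Mef2c, a transcription factor that neurons also express, had −0.33 ± 0.14. The mean log2 CPM of these identity genes, minus its mean over the 7 libraries, stood at 0.04, 0.09, 0.04 and −0.23 in KO/+ libraries. In WT libraries it stood at −0.17, −0.15 and 0.38.

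Downstream of Trem2 and the Fc receptors, 8 of 12 genes had a log2 fold change above 0 (median 0.12) and 0 were called, with the exchange factor gene Vav1 at 0.47 ± 0.21 and the inhibitory receptor gene Fcgr2b at 0.43 ± 0.22. Of 10 genes of the classical complement pathway and its receptors, 7 were above 0 (median 0.09) and 0 were called. C2, the protease that follows C1q and C4 in the cascade, was at 1.56, 2.32, 1.88 and 2.13 CPM in KO/+ libraries, against 1.34, 1.22 and 1.59 CPM in WT libraries. The genotypes overlapped by KO/+ replicate 1 and WT replicate 3, and the log2 fold change of 0.51 ± 0.21 had an unadjusted p of 0.0372 and an adjusted p of 0.957 (edgeR). C3, the central component, had −0.70 ± 0.33 on 9 to 32 counts a library. Of 7 purine receptors and sensors, 4 were above 0 (median 0.27) and 0 were called. Tlr7, a sensor of single-stranded RNA, was at 1.85, 2.14, 1.86 and 1.08 CPM in KO/+ libraries, against 0.840, 1.03 and 1.36 CPM in WT libraries, with a log2 fold change of 0.69 ± 0.28 (unadjusted p 0.0403 and adjusted p 0.957, edgeR). Of the KO/+ libraries, replicate 4 lay among those of WT. In the 8 lists of border macrophages, signals, identity, receptor signalling, complement, purine sensing, activation and antigen presentation, 3 of 87 genes tested (3.45%) had an unadjusted p under 0.05 in edgeR's test, namely Sall1, C2 and Tlr7, beside 3.15% of all genes. In the lists of other tissue components, 4 of 5 red blood cell genes and 2 of 5 genes of meninges and fibroblasts were under 0.05. So were 1 of 8 granule neuron genes and 1 of 5 oligodendrocyte precursor genes. P2rx4, an ATP-gated channel, had 0.27 ± 0.14.

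Genes of activated and phagocytic microglia were tested for 14 of 18, of which 9 had a log2 fold change above 0 (median 0.04) and 0 were called. Apoe, a lipid carrier made mostly by astrocytes and raised in activated microglia, was at 1810.4 ± 286 CPM in KO/+ and 1819 ± 294 CPM in WT libraries (SD), a log2 fold change of −0.01 ± 0.16. Lpl, a lipase, had −0.52 ± 0.26 and the chemokine gene Ccl6 0.43 ± 0.23. Antigen presentation genes were few and low, and all 3 that were tested of 4 had estimates above 0 (median 0.50), with 0 called. H2-Aa, a class II alpha chain, was at 1.24, 1.85, 0.707 and 0.440 CPM in KO/+ libraries, against 0.656, 0.514 and 0.748 CPM in WT libraries. It was high in KO/+ replicates 1 and 2 alone, with a log2 fold change of 0.74 ± 0.46, and H2-Ab1, a class II beta chain, had 0.50 ± 0.29. The mean log2 CPM of the antigen presentation genes tested, minus its mean over the 7 libraries, stood at 0.53, 0.80, −0.05 and −0.51 in KO/+ libraries. In WT libraries it stood at −0.35, −0.37 and −0.05.

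The transcripts of the microglia genes gave no call either. Of 145 transcripts annotated to the 33 genes, 55 passed the filter, with at least 1 for each gene, and 0 passed edgeR's test, beside 0% of 44375 transcripts in all. An unadjusted p under 0.05 was found for 0 of the 55, beside 2.71% of all transcripts. The smallest was that of Csf1r-201 (0.0789, edgeR), with a log2 fold change of −0.31 ± 0.15. This transcript made up 65.7%, 73.8%, 78.5% and 93.9% of Csf1r in KO/+ libraries, against 89.0%, 84.6% and 83.0% in WT libraries, as the isoform percentage that RSEM estimates. The KO/+ values ran both below and above those of WT, with means of 78.0 ± 11.8% in KO/+ and 85.5 ± 3.11% in WT (SD). Its rest was nearly all Csf1r-202, another coding transcript. Lyn-201, the leading transcript of the kinase, made up 75.6 ± 5.95% in KO/+ and 76.0 ± 2.67% in WT libraries.

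In 11 of the 33 genes a single transcript held at least 90% in every library, among them all 3 C1q chains, Cx3cr1 and P2ry13. In Trem2, the leading coding transcript Trem2-201 made up 67.3%, 53.7%, 86.4% and 83.9% in KO/+ libraries, against 50.4%, 60.9% and 65.1% in WT libraries. P2ry12 was split between transcripts, the leading P2ry12-202 at 41.0% to 58.4%. The leading transcript ranged over 50 points or more in 2 low genes, Ptprc-204 from 0% to 100% and Slc2a5-201 from 39.3% to 100% over the 7 libraries. As a share of expected counts, Slc2a5-201 averaged 94.5% in KO/+ and 90.1% in WT libraries.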

How the data were processed

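Polyadenylated RNA of mouse cerebella at postnatal day 15 was sequenced in 4 L3mbtl3 KO/+ and 3 WT libraries, with a directional library kit, per the labels. The submitters' processing notes name RSEM 1.3.1, STAR 2.5.2a, Trimmomatic 0.39 and bcl2fastq, with the builds mm10 and GRCm38. Whether the counting used strand is not given in the sources used here. Deposited expected counts, estimated by RSEM for genes and for transcripts per the file headers, were rounded to whole numbers. The deposited TPM values are scaled by transcript length and library total, and the deposited isoform percentage gives the percent held by each transcript within its gene, per the file headers. Whole-series tables were not used.

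The files held 55450 genes and 141767 transcripts, all genes found in GENCODE M21 (GRCm38). KO/+ was compared with WT over all 16813 genes passing filterByExpr, with TMM factors of 0.978 to 1.02, edgeR 4.0.16 (glmQLFit and glmQLFTest, robust, no covariate) and Benjamini-Hochberg adjustment, in R 4.3.3; the threshold on the adjusted p was 0.05. Replicates varied with a common biological coefficient of variation of 18.7%. For log2 fold changes the median SE was 0.227 in the microglia genes, beside 0.142 in all genes tested. Transcripts were tested alike, without RSEM's assignment uncertainty. Correlations used log2 CPM with a prior count of 2. DESeq2 1.42.0, limma 3.58.1, other scalings and filters, a replicate block and leaving out each library were alternatives. No libraries agreed within sampling noise. CPM in the text are TMM-scaled.

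The 33 members and all lists were chosen with earlier results of these data known. All members are named. 15 were chosen by name to be given in full, with up to 4 further members per direction by unadjusted p. From each other list, up to 2 genes by unadjusted p and fixed genes are named, beside the 10 genes most like the members' mean; 1 gene that this rule names is not reported here. Promoters and their sequences come from RefSeq (GRCm38.p6).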

Additional observations from a re-analysis of the deposited data

Results flagged for a closer look

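Of 33 groups of 4 KO/+ libraries checked, 1 held a library far from the others. Fcrls, a receptor-like protein of microglia, was at 12.2 CPM in KO/+ replicate 4, while the other KO/+ libraries stood close together at 16.7 to 17.2 CPM. The gap to the nearest library was 0.913 of the whole range, above Dixon's 95% critical value for 4 samples. Chance gives such a gap in about 5% of groups, and the WT libraries were at 15.1, 12.5 and 16.4 CPM.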

How the results depend on the processing

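Of the 33 microglia genes 0 were called under every alternative run, and of their transcripts 0 with the replicate block, without any 1 library or at an adjusted p of 0.1. Over the other scalings, filters and tools, 21 to 26 members were higher in KO/+, with medians of 0.07 to 0.13; a minimum mean of 1 CPM removed Slc2a5. Leaving out 1 library gave 17 to 30 members, medians of 0.01 to 0.30, and 0 to 1 genes called over all genes (Eif3j2 without KO/+ replicate 4, Wdfy1 without WT replicate 2 and Fam220a without WT replicate 3, none a microglia gene, named after their values were seen). Replicates of the same number did not deviate together (r of deviations 0.086, −0.17 and −0.022), which does not show whether they share a litter or batch. With the replicate block, 1 gene (Eif3j2) was called over all genes, 1036 had an unadjusted p under 0.05, 30 members were higher in KO/+ and the median was 0.30. The median r among members was 0.547 without the libraries farthest from the median. The cause of these shifts was not tested.

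Estimates changed sign for the genes that follow. With the replicate block they were Apoe 0.055, Cd68 0.077, Inpp5d 0.080, Itgam 0.21, Selplg 0.25, Cx3cr1 0.20 and Tmem119 0.039. With upper-quartile factors they were Apoe 0.0078, Selplg 0.0065 and Cx3cr1 0.0070. With limma-voom they were Ptprc −0.033, Itgam 0.033, Selplg 0.031 and Cx3cr1 0.0050. With limma-trend on log2(TPM + 1) they were Tgfb1 0.00042, Trem2 −0.10, Ptprc −0.0053 and Laptm5 −0.061, and on log2(TPM + 0.1) Trem2 −0.12, Ptprc −0.045 and Laptm5 −0.068. Leaving out 1 library gave Apoe −0.11 to 0.13, Cd68 −0.15 to 0.076, Csf1r −0.29 to 0.032, Cx3cl1 −1.17 to 0.054, Cx3cr1 −0.19 to 0.30, Fcrls −0.013 to 0.19, Il34 −0.40 to 0.21, Inpp5d −0.22 to 0.17, Itgam −0.30 to 0.45, Laptm5 −0.089 to 0.22, Mrc1 −0.028 to 0.26, Olfml3 −0.089 to 0.27, P2ry12 −0.048 to 0.56, P2ry13 −0.043 to 0.45, Ptprc −0.11 to 0.24, Selplg −0.24 to 0.44, Siglech −0.15 to 0.63, Spi1 −0.024 to 0.18, Tmem119 −0.31 to 0.25 and Trem2 −0.014 to 0.20. Of estimates that kept their sign, Aif1 ranged over 0.26 to 0.83, Ctss 0.10 to 0.74, Gpr34 0.09 to 0.63, Cd53 0.18 to 0.69, Mpeg1 0.20 to 0.66 and Csf1 −0.35 to −0.0023.

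With 4 KO/+ and 3 WT libraries, the smallest change that could be detected was not tested. The 95% intervals are for single genes, without adjustment over all genes tested, and do not mark that limit. Counting error bears most on low members such as Slc2a5 (13 to 37 counts), Aif1 (22 to 75) and Ptprc (29 to 99).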
